A study of Mus musculus with 10 samples.

Results

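The genes described here are 7 that mark differentiating oligodendrocytes and the myelin they make: Mbp, Mog, Mag, Cnp, Cldn11, Mobp and Myrf. They were listed by symbol, with earlier results of these data known, and all 7 were found among the 28059 genes listed in the deposited files. RNA from whole mouse brain at E18.5, shortly before birth, with the olfactory bulbs removed, was sequenced in 10 libraries, 2 for each of 5 genotypes. In order, the genotypes are the loss of COP1, cJun, ETV1 and ETV5 (QKO), of COP1, cJun and ETV1 (TKO), of COP1 and cJun (DKO), and of COP1 alone (KO), set against brains heterozygous for COP1 (control). The controls thus carry 1 disrupted COP1 allele, and no brain with both alleles intact was analysed here. The sources used here do not give the driver of the deletions, the cells in which they took place, or the litters. Libraries are numbered in accession order within a genotype, and the numbers pair nothing.

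Oligodendrocytes arise from precursor cells that carry the growth factor receptor Pdgfra and the transcription factors Olig2 and Sox10. On leaving the cell cycle they pass through a committed stage, marked by the receptor Gpr17, and then switch on Myrf, the transcription factor that drives myelin genes, and the proteins of the myelin sheath. In the mouse forebrain most of this happens after birth, while the hindbrain and spinal cord start earlier. COP1 is a ubiquitin ligase that marks cJun (gene Jun) for degradation, and likewise ETV1, ETV4 and ETV5, which are ETS factors, so its loss is known to stabilise these proteins. The rest of the comparison therefore sets the myelin genes beside markers of the precursors that come before them.

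Since cJun binds AP-1 sites and the ETV proteins bind ETS sites, the promoters of the genes were searched for these letters first. RefSeq (GRCm38.p6) gave promoter sequence for 5 of the 7 genes and 7 start sites, with no entry for Mbp or Myrf. In the 250 bases before each start, on both strands, the AP-1 letters TGANTCA, the ETS letters CCGGAA, the SOX letters AACAAT and the E-box letters CAGCTG were found in 0 of the 7 promoters. They occurred in 6.75%, 12%, 9.42% and 13.0% of all 32851 promoters in the same window. The MYRF letters CTGGNAC, which overlap none of the others, were present in promoters of 3 of the 5 genes, Mog, Mag and Cnp, and in 16.1% of all promoters. That made 4 of the 7 promoters, but 2 of these belong to Mag, overlap, and share the same pair of matches. Among 17 promoters of 11 precursor genes, 3 held the MYRF letters, 0 held AP-1, and 2 each held ETS, SOX and the E-box. These matches describe letters in a short window and show neither binding nor its absence. The 3 genes with MYRF letters are printed below, 5′ to 3′ on the strand of the gene, up to the base before its start, with those letters in capitals on whichever strand they lay. Cnp lies at chr11:100574689-100574938 on the plus strand and Mog at chr17:37023399-37023648 on the minus strand. Mag is shown for its start farthest upstream, at chr7:30914923-30915172 on the minus strand.
Cnp: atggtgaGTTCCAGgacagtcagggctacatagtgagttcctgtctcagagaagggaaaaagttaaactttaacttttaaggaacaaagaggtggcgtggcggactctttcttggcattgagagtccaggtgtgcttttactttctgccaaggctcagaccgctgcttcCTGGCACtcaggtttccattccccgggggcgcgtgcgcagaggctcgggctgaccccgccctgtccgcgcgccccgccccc
Mog: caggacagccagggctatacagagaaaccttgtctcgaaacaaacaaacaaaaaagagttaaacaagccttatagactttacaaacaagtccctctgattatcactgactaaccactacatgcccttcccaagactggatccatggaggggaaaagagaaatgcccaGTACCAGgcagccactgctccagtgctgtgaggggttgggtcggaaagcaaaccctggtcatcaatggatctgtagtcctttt
Mag: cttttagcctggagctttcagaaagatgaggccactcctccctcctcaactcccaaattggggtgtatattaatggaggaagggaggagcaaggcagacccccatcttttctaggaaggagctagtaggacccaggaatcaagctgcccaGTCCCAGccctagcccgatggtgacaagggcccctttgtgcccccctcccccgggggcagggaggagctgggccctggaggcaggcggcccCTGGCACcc
The first base of a match lay 243 and 81 bases upstream of the Cnp start, 83 bases upstream of that of Mog, and 100 and 9 bases upstream of that of Mag.

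Levels are given as the deposited nRPKM, reads per length and depth with 1 normalising factor per library, so that the levels of different genes can be set side by side. Library totals were between 31996944 and 54594523 counts, so that 3 counts, the limit that a count of 0 allows, came to between 0.0549 and 0.0938 CPM, a count scaled for the depth of its library. Such limits and the intervals on counts cover counting error only. Jun followed its labels, at 1.75 ± 0.425 nRPKM in QKO, 1.54 ± 0.0818 in TKO, 2.27 ± 0.940 in DKO, 15.7 ± 0.565 in KO and 14.99 ± 0.0054 in control (SD, n = 2 each). Gene-level reads of Cop1, Etv1 and Etv5 remained in all libraries and do not check the other labels. Cop1 averaged between 3.76 and 4.29 nRPKM in the 4 knockout genotypes and 4.87 in control. Etv1 ran against its label among the knockouts. It averaged 4.54 nRPKM in QKO and 3.74 in TKO, both labelled for its loss, against 2.04 in DKO, 2.03 in KO and 4.88 in control. The X-inactivation RNA Xist stood at 1459 CPM in DKO 1 and 1848 in control 1, against 0.903 to 1.95 in the other 8 libraries. DKO and control thus each mixed a library with high Xist and another with low Xist, while both libraries of QKO, TKO and KO were low. Comparisons of QKO, TKO or KO with control, and of DKO with KO or TKO, therefore also differ in this sex pattern. HOX genes, which mark the hindbrain and spinal cord, also varied: their mean log2 level minus the control mean was -0.31 and -2.67 in the QKO libraries, -1.05 and -1.30 in TKO, -2.77 and -2.21 in DKO, -2.79 and -3.56 in KO, and -0.48 and 0.48 in the controls. Uty, a gene of the Y chromosome, had 0 CPM in DKO 1 and control 1, and 23.1 to 26.9 CPM in the other 8 libraries. The 2 libraries of DKO thus came from different embryos, as did those of control. Nothing in the labels says that the libraries of QKO, TKO or KO did, or that any genotype was sampled in separate litters. The p-values then measure only how far these samples differ, in part perhaps technically. In bulk tissue, fewer cells of a type and less RNA per cell cannot be told apart.

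None of the myelin genes passed the test across all genes in any comparison of genotypes, while precursor genes did. Of the 7 genes, 6 passed the filter on low counts, and Mobp did not. With edgeR's quasi-likelihood test and Benjamini-Hochberg adjustment over 18671 genes, 0 of the 6 passed an adjusted p of 0.05 in any of 8 comparisons, and DESeq2 also called 0 of them. The share of all tested genes past the same threshold was 0.236% in QKO against control, 0.15% in TKO against control, 0.423% in DKO against control and 0.734% in KO against control. It was 1.29% in QKO against KO, 0.289% in QKO against TKO, 0.0911% in TKO against DKO and 0.568% in DKO against KO, so a count of 0 among 6 is near the background in each comparison. At an unadjusted p of 0.05, 2 of the 6 passed in QKO against control, 3 in TKO against control, 2 in DKO against control, 1 in KO against control, 2 in QKO against KO, 2 in TKO against DKO, and 0 in QKO against TKO and in DKO against KO. Among all tested genes that threshold was passed by 6.89% in QKO against control, 10.3% in TKO against control, 8.14% in DKO against control, 10.4% in KO against control, 11.5% in QKO against KO, 11.9% in TKO against DKO, 5.78% in QKO against TKO and 13.8% in DKO against KO.

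**Figure D1:**
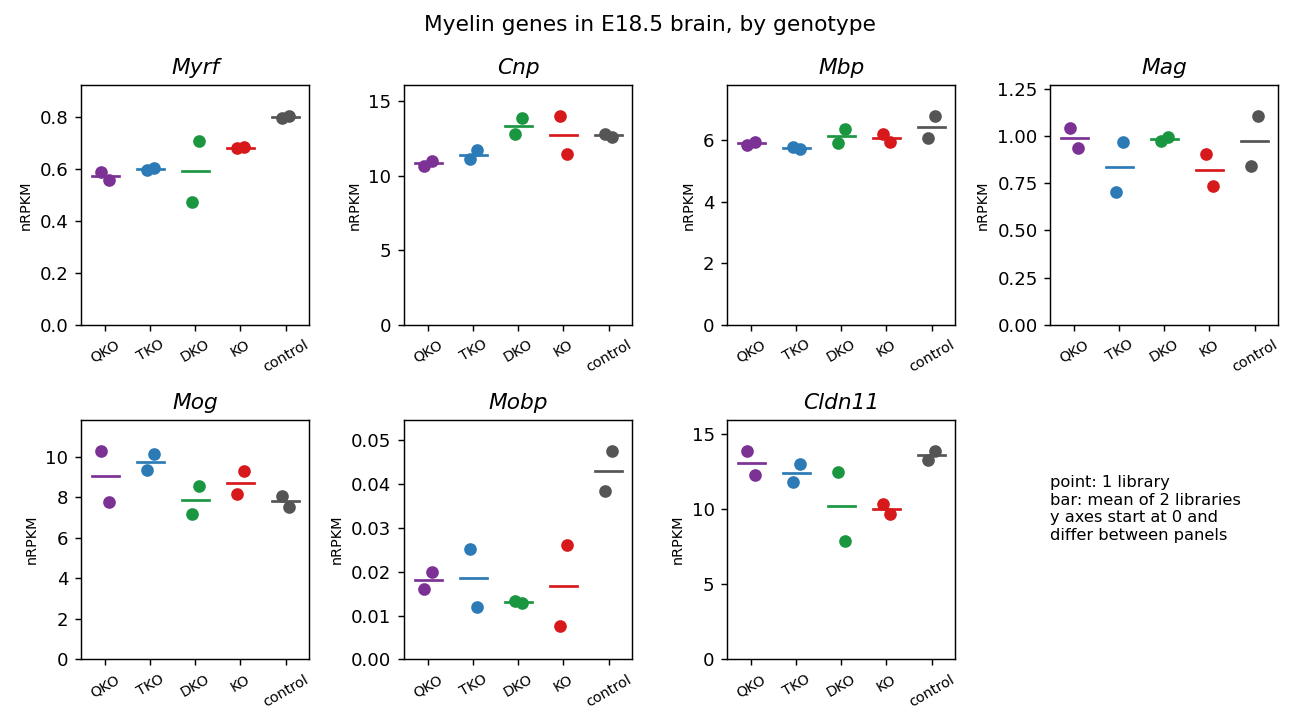
Level of each of the 7 genes in every library, in nRPKM, with the genotypes along the horizontal axis; each point is 1 library, each bar is the mean of 2 libraries, and the vertical axes start at 0 and differ between panels. Myrf and Mobp lie below both controls in all 8 libraries without COP1, while Mbp spans only 5.69 to 6.77 nRPKM over all 10.

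Myrf, the transcription factor that switches on the myelin programme, had 0.589 and 0.558 nRPKM in QKO, 0.597 and 0.606 in TKO, 0.473 and 0.710 in DKO and 0.683 and 0.683 in KO, against 0.798 and 0.804 in control. All 8 libraries without COP1 were below both controls, as were 3.15% of all tested genes. The reads behind these levels ranged from 127 to 228 counts. The fitted log2 difference from control was -0.48 ± 0.17 (SE) in QKO, with an edgeR adjusted p of 0.563. It was -0.41 ± 0.17 in TKO (adjusted p = 0.456), -0.45 ± 0.17 in DKO (adjusted p = 0.474) and -0.22 ± 0.16 in KO (adjusted p = 0.684). The value of DKO rested on its libraries: it was -0.17 without DKO 1 and -0.75 without DKO 2. These 4 comparisons share the control libraries. Between knockouts, the intervals of the difference included 0: QKO minus KO was -0.26 (95% interval -0.64 to 0.11) and DKO minus KO was -0.24 (-0.61 to 0.14). The mean HOX level was also lower than the control mean in all 8 libraries. With that level as a covariate, Myrf differed from control by -0.38 ± 0.21 in QKO, -0.33 ± 0.20 in TKO, -0.29 ± 0.28 in DKO and -0.00 ± 0.33 in KO. The part of dissection in the level of Myrf was not tested further.

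Cnp encodes an enzyme of the non-compact myelin and is among the earliest myelin genes to be transcribed. It had 10.7 and 11.0 nRPKM in QKO, 11.1 and 11.7 in TKO, 12.8 and 13.9 in DKO, 14.0 and 11.5 in KO and 12.8 and 12.6 in control. The QKO libraries were the lowest of all 10, and those of KO lay on either side of the controls. The largest fitted difference was that of QKO minus KO, -0.25 ± 0.09 on the log2 scale, which did not pass the test (edgeR adjusted p = 0.306), and QKO minus control was -0.23 ± 0.09 (adjusted p = 0.666). KO minus control was 0.02, with a 95% interval of -0.18 to 0.22. In the RefSeq annotation Cnp overlaps Dnajc7, a gene of a chaperone on the opposite strand, by 9058 bases, and its level was 14.4% to 20.8% of that of Dnajc7. The sources used here do not say how reads on either strand were counted, and the library kit named in the labels does not mark strand, so reads of both genes cannot be told apart. Over the 10 libraries the log2 levels of Cnp and Dnajc7 had a Pearson r of -0.81, a description over libraries that share genotypes.

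Mbp, the basic protein that holds the layers of compact myelin together, was the steadiest of the 7 genes. It had 5.84 and 5.94 nRPKM in QKO, 5.77 and 5.69 in TKO, 5.91 and 6.35 in DKO, 6.18 and 5.93 in KO and 6.07 and 6.77 in control. Its coefficient of variation over all 10 libraries was 5.30%, the lowest of the 7, from 1432 to 2477 counts. KO minus control was -0.07 on the log2 scale, with a 95% interval of -0.23 to 0.08, and QKO minus KO was -0.05 (-0.20 to 0.10). The largest difference was that of TKO minus control, -0.16 ± 0.07, with an edgeR adjusted p of 0.483. The Mbp gene also makes golli transcripts, known from neurons and precursors, and a count per gene does not separate them from those of myelin.

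Mag, a receptor-like protein on the inner face of the myelin sheath, was low, with 76 to 131 counts per library. It had 1.04 and 0.939 nRPKM in QKO, 0.703 and 0.968 in TKO, 0.977 and 0.997 in DKO, 0.905 and 0.736 in KO and 0.842 and 1.11 in control. The controls spanned most of the range of the other libraries. Intervals were correspondingly wide: KO minus control was -0.23 on the log2 scale (95% interval -0.67 to 0.21), and QKO minus KO was 0.25 (-0.19 to 0.70).

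Mog, a glycoprotein of the outermost myelin layer that is usually a late marker of maturation, had 10.3 and 7.78 nRPKM in QKO, 9.33 and 10.1 in TKO, 7.15 and 8.56 in DKO, 8.14 and 9.30 in KO and 8.08 and 7.53 in control. Both libraries of TKO and of KO were above both controls, while those of QKO and of DKO overlapped the controls. The largest difference was that of TKO minus control, 0.33 ± 0.14 on the log2 scale (edgeR adjusted p = 0.46), followed by TKO minus DKO at 0.32 ± 0.14 (adjusted p = 0.406). In KO against control Mog had the highest fitted change of the 6 genes tested, 0.17 (95% interval -0.13 to 0.47).

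Beside Mog on the genome, 10 bases away in the RefSeq annotation and on the opposite strand with 3′ ends facing, lies Zfp57, a zinc finger gene that maintains imprints. Zfp57 averaged 49.6 nRPKM in QKO, 49.3 in TKO, 38.4 in DKO, 46.5 in KO and 40.5 in control, and Mog stood at 17.4% to 21.6% of it in every library. The order of libraries was close: over 10 libraries the Pearson r of the log2 levels was 0.90. The fitted log2 differences from control were 0.21 for Mog and 0.29 for Zfp57 in QKO, 0.33 and 0.29 in TKO, 0.01 and -0.08 in DKO, and 0.17 and 0.21 in KO. The neighbours of the genes were looked up after the levels had been seen. Whether reads that run past the end of Zfp57 entered the count of Mog was not tested.

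Mobp, a basic protein of compact myelin that is made late, was at the limit of detection. It had 3 and 4 counts in QKO, 5 and 2 in TKO, 3 and 2 in DKO, 2 and 5 in KO, and 8 and 10 in control. Pooled over each genotype these came to 0.0877 CPM in QKO (exact 95% Poisson interval 0.0353 to 0.181), 0.0939 in TKO (0.0378 to 0.194), 0.0636 in DKO (0.0206 to 0.148), 0.0740 in KO (0.0298 to 0.152) and 0.206 in control (0.122 to 0.326). The controls were the highest of the 10 libraries. The interval of each knockout genotype overlapped that of control, which is not a test of their difference. In an edgeR fit with no filter on low counts, Mobp minus control was -1.22 ± 0.77 in QKO, -1.14 ± 0.77 in TKO, -1.66 ± 0.82 in DKO and -1.42 ± 0.76 in KO on the log2 scale, with adjusted p-values between 0.607 and 0.944. Each fitted difference of Mobp from control was negative, but none passed the test at this depth (edgeR unadjusted p between 0.05375 and 0.151).

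Cldn11, the claudin that forms the tight junctions of central myelin, was the most variable of the 6 genes that passed the filter, with a coefficient of variation of 16.6%. It had 13.9 and 12.3 nRPKM in QKO, 11.8 and 13.0 in TKO, 12.5 and 7.89 in DKO, 10.3 and 9.69 in KO and 13.3 and 13.9 in control. Both KO libraries were below every QKO, TKO and control library, and DKO 2 was the lowest of all while DKO 1 was not. KO minus control was -0.43 ± 0.16 on the log2 scale (edgeR adjusted p = 0.384), DKO minus control was -0.40 ± 0.16 (adjusted p = 0.548) and QKO minus KO was 0.37 ± 0.16 (adjusted p = 0.408). The call depended on the libraries fitted: with only the 4 libraries of KO and control the same difference of KO was -0.44 ± 0.08 with an adjusted p of 0.0123. Without DKO 1, the difference of DKO was -0.78 ± 0.11 with an adjusted p of 0.0146, and without DKO 2 it was -0.11 ± 0.11 with an adjusted p of 0.786. Each of these fits has 1 DKO library, which is assumed to vary as the other groups do. Cldn11 is also made by the arachnoid barrier cells of the meninges. The summed level of 12 arachnoid and meningeal genes, such as Dcn and Ptgds, was 315 to 419 nRPKM in QKO, 379 to 431 in TKO, 336 to 407 in DKO, 325 to 328 in KO and 394 to 443 in control. None of those 12 genes passed the test in any of the 8 comparisons. Ptgds alone averaged 208 nRPKM in KO and 291 in control, more than any other gene of that list. In KO against control 11 of the 12 changes were negative, while Col1a1 averaged 29.7 nRPKM in KO and 27.5 in control. Over 10 libraries Cldn11 and that sum had a Pearson r of 0.70, and the median r of Cldn11 with each of the 12 genes was 0.67. The part of meningeal tissue in the level of Cldn11 was not tested.

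**Figure D2:**
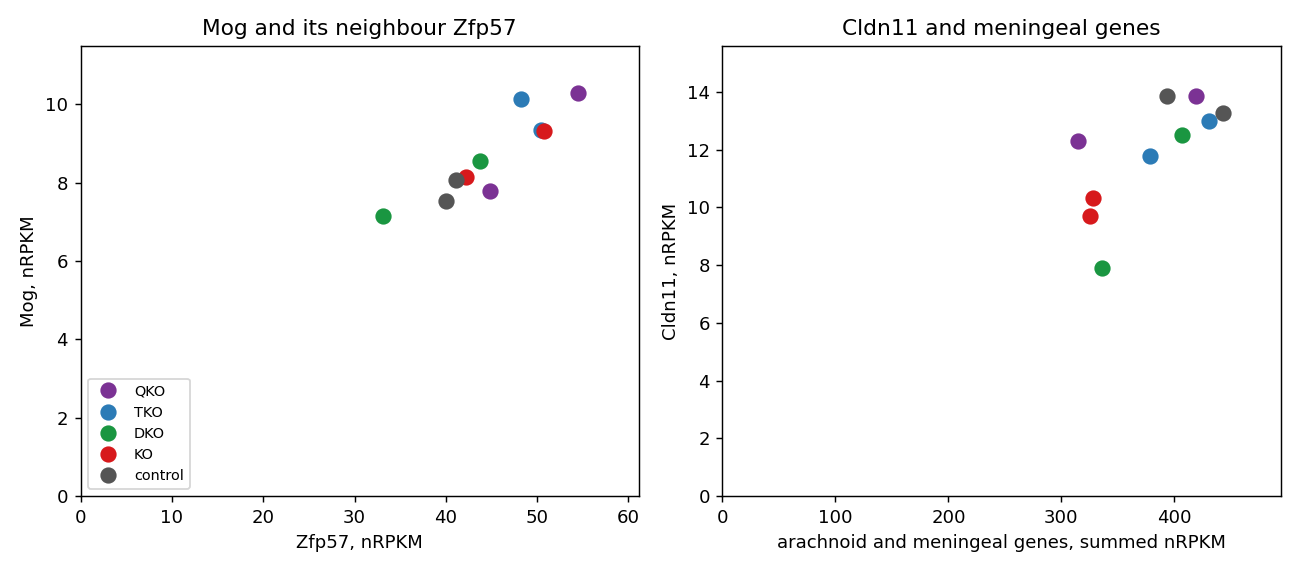
Left, nRPKM of Mog against that of its neighbour Zfp57; right, nRPKM of Cldn11 against the summed nRPKM of 12 arachnoid and meningeal genes; each point is 1 library, coloured by genotype, and all axes start at 0. Libraries with more Zfp57 had more Mog (r = 0.90, 10 libraries), and the KO libraries lie low for both Cldn11 and the meningeal sum (r = 0.70). Ptgds weighs most in the meningeal sum.

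Per length, the sum of the 7 genes was made up mostly of Cnp (25.2% to 36.1% of it), Cldn11 (20.6% to 32.8%), Mog (17.6% to 24.6%) and Mbp (13.5% to 16.6%). Mag gave 1.79% to 2.60%, Myrf 1.19% to 1.90% and Mobp 0.0188% to 0.111%. In grown mouse brain Mbp is known as one of the most abundant transcripts of all. In each of these 10 libraries its level per length was below those of Cnp, Cldn11 and Mog. In CPM, which is not divided by gene length, Mbp was instead the highest of the 7 in each library. In KO 1, for example, it stood at 45.5 CPM, against 41.1 for Cnp. Among the members the pairwise Pearson r of log2 levels over 10 libraries ran from -0.55 (Mbp with Mog) to 0.66 (Mbp with Myrf), so the 6 genes that passed the filter did not follow a common pattern across libraries. The tested genes most like each member over the 10 libraries differed from member to member: for Mbp they were Agap2 (r = 0.93), Slc9a3r2 (0.92) and Slc2a3 (0.92), and for Myrf they were Zfp395 (0.93), Susd5 (0.92) and Tmem255a (0.91). For Mog they were Fam227a, Chuk and Gm15328, each at 0.98. Cnp was nearest to Dusp7 (0.97), Rasip1 (0.94) and Nr0b1 (0.94), and Mag to Gucd1 (0.93), Tmem219 (0.89) and Arhgap36 (0.89). For Cldn11 they were an unnamed gene, Tnfaip8l3 and Dse, each at 0.93. None of these genes was on a list of myelin or precursor genes. They are the highest of 18665 coefficients over 10 libraries, are given as a description, and do not bear on function.

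Some of the precursor markers did pass the test. In KO against control, 7 of 15 precursor genes passed the test, all higher, and the median log2 change of the 15 was 0.39, beside 0.01 for all tested genes and -0.15 for the myelin genes. The share of all tested genes called higher was 0.503%. Olig2, a transcription factor that specifies the lineage, had 11.6 and 11.0 nRPKM in QKO, 18.4 and 19.5 in TKO, 22.9 and 19.7 in DKO, 28.0 and 25.1 in KO and 11.9 and 13.0 in control. KO libraries were the highest and QKO libraries the lowest, with no overlap between either group and the rest. Sox10, which with Olig2 keeps the identity of the lineage and is needed for Myrf expression, had 3.94 and 2.90 nRPKM in QKO, 4.85 and 4.72 in TKO, 5.80 and 5.42 in DKO, 9.95 and 7.61 in KO and 3.87 and 4.86 in control. Pdgfra, the receptor on which precursors depend for division, had 12.8 and 11.8 nRPKM in QKO, 17.0 and 16.7 in TKO, 16.3 and 18.502 in DKO, 21.5 and 20.5 in KO and 13.5 and 14.8 in control.

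The log2 changes in KO against control were 1.21 ± 0.13 for Olig1, 1.11 ± 0.09 for Olig2, 1.02 ± 0.16 for Sox10, 0.74 ± 0.14 for the proteoglycan Cspg4, 0.64 ± 0.08 for Sox8, 0.58 ± 0.08 for Pdgfra and 0.46 ± 0.06 for Sox6. The other 8 precursor genes did not pass, and intervals of theirs, such as that of Nkx2-2 (-0.13 to 0.43), overlapped those of myelin genes. The difference between myelin and precursor genes was not itself tested. In QKO against KO, which shares the KO libraries with that comparison, 9 of 15 precursor genes passed the test, all lower, against 0.932% of all genes. They included the same 7, for example Sox10 at -1.38 ± 0.16, Olig2 at -1.25 ± 0.09 and Pdgfra at -0.78 ± 0.08, and Lhfpl3 at -0.44. The median of the 15 was -0.44, beside -0.00388 for the 6 myelin genes and -0.01 for all tested genes. The count of 7 in KO against control fell to 2 without KO 1, to 2 without control 1 and to 3 without control 2, and was 6 without KO 2; Olig1 and Olig2 passed in each of these fits.

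**Figure D3:**
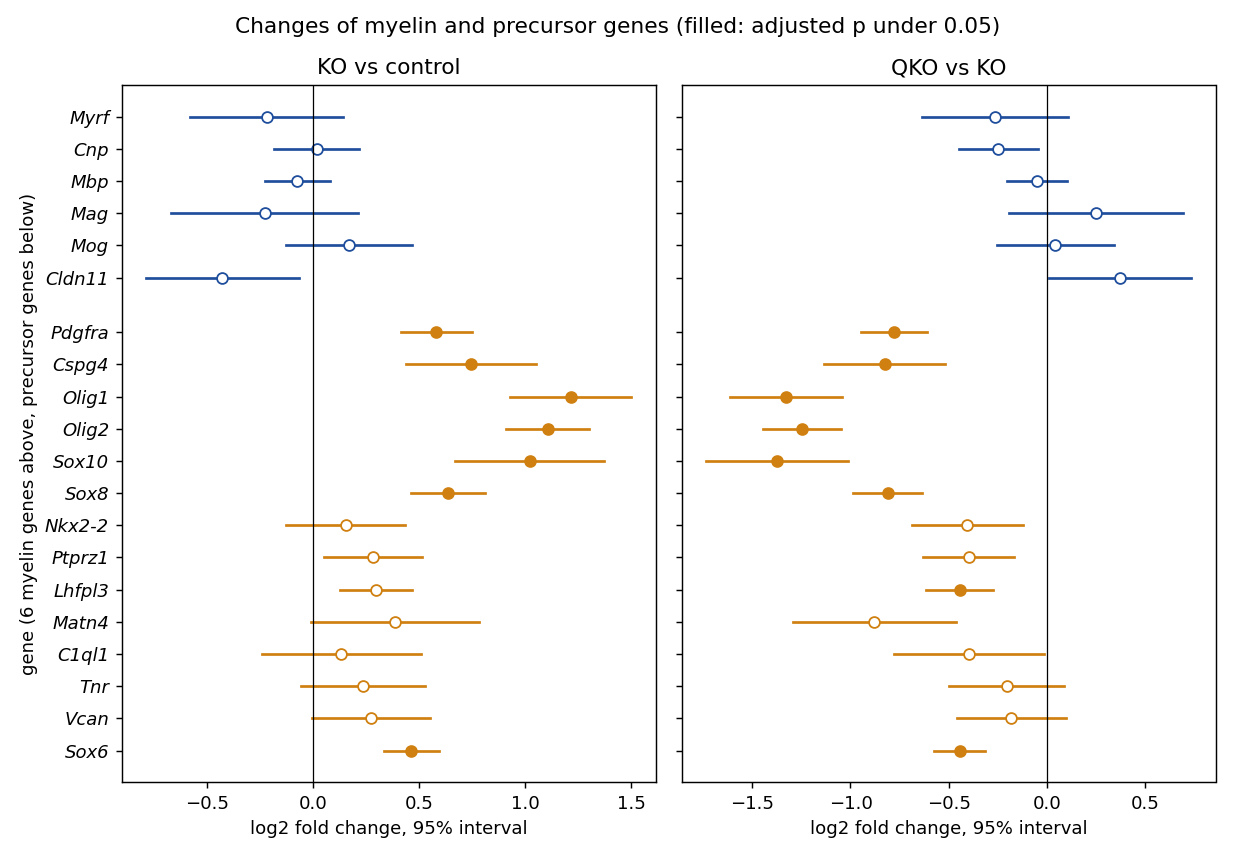
Log2 fold change with its 95% interval for 6 myelin genes (blue) and precursor genes (orange), for KO against control on the left and QKO against KO on the right; filled points passed an adjusted p of 0.05. The points of the precursor genes lie right of 0 in KO against control and left of 0 in QKO against KO. The myelin genes are all unfilled and lie on both sides of 0. In QKO against KO the intervals of Cldn11 (0.01 to 0.74) and Cnp (-0.45 to -0.04) exclude 0. In KO against control that of Cldn11, at -0.43, also does, and the other intervals of myelin genes include 0.

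In the remaining comparisons fewer precursor genes were called. In DKO against KO 1 of 15 was lower (Sox6, -0.51), in QKO against TKO 3 were lower (Olig2 at -0.76, Pdgfra at -0.46 and Sox8 at -0.46), and in TKO against DKO 0 were called. Without 1 library, 0 to 2 of the 3 genes of QKO against TKO were called, 0 of them without TKO 2. Olig2 was higher than control in DKO (0.78), a call lost without control 1, and in TKO (0.61), a call lost without any 1 of the 4 libraries compared, and in QKO against control 0 precursor genes were called. The median change of the 6 myelin genes was between -0.15 and 0.02 in all 8 comparisons. Some astrocyte markers moved with the precursor genes: in KO against control 4 of 8 rose, namely Gfap (1.99 ± 0.26), Fgfr3 (0.78 ± 0.10), Aldh1l1 and Slc1a3, and in QKO against KO the same 4 fell. The other 4 did not pass in either: in KO against control Slc1a2 stood at 0.26, Aldoc at -0.01, Aqp4 at -0.04 and Gja1 at -0.25, and in QKO against KO Gja1 stood at 0.11. HOX genes also moved in KO against control, where 6 of the 12 tested fell and the median of the 12 was -3.63. With their mean level as a covariate 5 precursor genes were called in that comparison. In QKO against KO 0 of the 12 HOX genes passed by edgeR, though all 12 had an unadjusted p under 0.05 and were higher, with a median of 2.83. The part of astrocytes in the precursor changes was not tested.

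Between precursors and myelin lie the committed precursors, which had few calls. Of 12 such markers, 1 rose in KO against control: Tns3, at 0.36 ± 0.07, with an edgeR adjusted p of 0.0472. Itpr2, a calcium channel of the endoplasmic reticulum, fell by 0.85 in DKO against KO (SE 0.13, adjusted p = 0.0169) and by 0.72 in QKO against KO (SE 0.13, adjusted p = 0.0261). It averaged 1.46 nRPKM in QKO, 1.84 in TKO, 1.33 in DKO, 2.39 in KO and 1.63 in control. Tns3 lost its call without any 1 of the 4 libraries compared, and Itpr2 lost that of DKO against KO without DKO 1 or without KO 2, and that of QKO against KO without QKO 2, KO 1 or KO 2. In DKO against KO the receptor Gpr17 stood at -0.67 ± 0.15 (adjusted p = 0.113), Bcas1 at -0.57 ± 0.14 (adjusted p = 0.135) and Enpp6 at -1.62 ± 0.51 (adjusted p = 0.228), none of which passed. In KO against control the values of the same 3 genes were 0.07, 0.40 and -0.50 on the log2 scale.

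Myelin genes outside the 7 showed 1 call. Of 24 such genes 21 passed the filter, and Opalin, a late myelin protein, had 0 counts in all 10 libraries. Pllp, plasmolipin, a membrane protein of myelin, had 1.19 and 1.14 nRPKM in QKO, 0.974 and 1.30 in TKO, 0.861 and 0.961 in DKO, 1.98 and 1.64 in KO and 1.22 and 1.19 in control. Both KO libraries were the highest, and the change of DKO against KO was -1.01 ± 0.18 (edgeR adjusted p = 0.0315). It lost that call when any 1 of the 4 libraries compared was left out, and in KO against control it stood at 0.61 ± 0.17 (adjusted p = 0.192). Mal, a raft protein of compact myelin, was 0.85 ± 0.23 higher in DKO than in KO with an adjusted p of 0.169, and Ugt8a, which makes the myelin lipid galactosylceramide, was at 0.11 ± 0.15 in KO against control (adjusted p = 0.836). Fa2h, which makes the hydroxylated fatty acids of myelin lipids, was the only other myelin gene that passed the filter and was below both controls in all 8 libraries without COP1, at 0.0710 to 0.153 nRPKM against 0.162 and 0.229 in control, from 8 to 27 counts.

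Genes known to hold back oligodendrocyte differentiation were also read. Of 7, 0 passed in KO against control. Notch1, a receptor whose signalling keeps precursors undifferentiated, fell in QKO against KO (-0.72) and in DKO against KO (-0.65), and Hes5, its transcriptional target, fell in QKO against KO (-0.55). Id2, an inhibitor of the factors that drive differentiation, rose in QKO against KO (0.33), and Hes1 rose in DKO against control (0.68). Each of these 5 calls was lost in at least 2 of the 4 fits that left out 1 library compared. Myelinating Schwann cells of the peripheral nerves, which share Mbp, Mag and Cnp with oligodendrocytes, left little signal. The sum of 10 Schwann cell markers was 9.69 to 11.8 nRPKM over the 10 libraries, none passed the test in any comparison, and Pmp2, a lipid-binding protein of peripheral myelin, had 0 to 2 counts.

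Summed over each list, the 7 myelin genes came to 38.5 to 42.3 nRPKM in QKO, 39.3 to 42.1 in TKO, 38.4 to 39.8 in DKO, 37.9 to 40.2 in KO and 41.9 to 42.7 in control. Both DKO and KO lay just below the controls on this sum, and TKO and QKO overlapped them. Cldn11 and Mog, whose parts from meningeal tissue and from reads of Zfp57 were not tested, count in this sum. The 15 precursor genes came to 212 to 227 nRPKM in QKO, 279 to 287 in TKO, 281 to 287 in DKO, 348 to 365 in KO and 230 to 245 in control. The myelin sum was therefore 18.6% and 18.2% of the precursor sum in the QKO libraries, 13.7% and 15.1% in TKO, 14.2% and 13.4% in DKO, 11.0% and 10.9% in KO, and 18.2% and 17.5% in control. As a log2 ratio, the difference from control was 0.04 in QKO, -0.31 in TKO, -0.37 in DKO and -0.71 in KO. Most of that difference came from the precursor sum. Ptprz1 averaged 85.1 nRPKM in control and 103 in KO, and Olig1 42.7 and 98.2. These genes made up most of the precursor sum, and Ptprz1 did not pass the test in KO against control. The 12 committed precursor genes came to 143 to 152 nRPKM in QKO, 143 to 151 in TKO, 157 to 163 in DKO, 162.0 to 162.5 in KO and 150.2 to 152 in control. In control, Fyn averaged 67.4 nRPKM, Tcf7l2 45.9 and Rras2 15.8, and these genes made up most of that sum. Gpr17 averaged 6.88 in control and 4.55 in DKO, although the sum was higher in DKO. In DKO against control 6 of the 12 genes had positive and 6 had negative changes. The other myelin genes came to 79.9 to 84.4 nRPKM in QKO, 84.3 to 91.3 in TKO, 87.2 to 92.1 in DKO, 84.7 to 92.2 in KO and 83.4 to 84.1 in control. Sirt2 alone had 42.8 and 41.8 nRPKM in the control libraries, more than any other gene of that list.

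**Figure D4:**
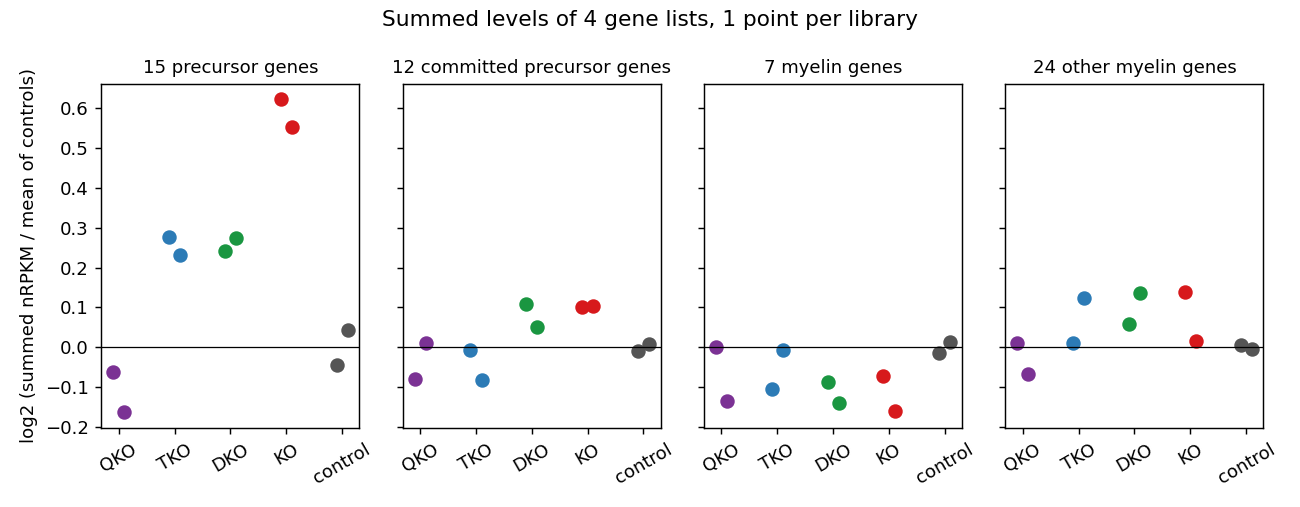
Summed nRPKM of 4 gene lists in each library, as log2 of the sum over the mean of the controls; each point is 1 library and the genotypes run along the horizontal axis. The precursor sum of KO stands highest (348 to 365 nRPKM against 230 to 245 in control), and the sum of the 7 myelin genes stays within 37.9 to 42.7 nRPKM in all 10 libraries. Ptprz1 and Olig1 weigh most in the precursor sum, Fyn and Tcf7l2 in the committed precursor sum, and Sirt2 in that of the other myelin genes.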

How the data were processed

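Polyadenylated RNA was sequenced as paired 75 bp reads. The aligner was GSNAP and the build NCBIM37, per the submitters' processing notes. The deposited files hold, per gene identifier, a count of uniquely aligned reads and a normalised RPKM (nRPKM), per the file headers; the count divided by the nRPKM was 1 constant per gene up to 1 factor per library. Symbols came from RefSeq (GRCm38.p6), which named 24998 of 28059 identifiers (89.1%). The sources used here give neither the strand handling nor the annotation release.

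Counts were fitted in 1 model of 5 group means over 10 libraries (R 4.3.3, edgeR 4.0.16, quasi-likelihood, TMM, limma 3.58.1) after filterByExpr, which kept 18671 genes, with Benjamini-Hochberg adjustment over these and 5 residual degrees of freedom. The filter set aside 9388 genes. The 2 libraries of a group differed by more than sampling noise, with a chi-square per degree of freedom between 7.51 and 19.5. The test was also run on simulated counts, with changes added only to genes above a set mean level. These counts did not model sex or dissection, and their outcome is not given here. Correlations used log2 CPM with a prior count of 2.

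All 7 members are named, with each gene of the other lists past an adjusted p of 0.05 and fixed examples; for each member the 3 genes with the highest r are named. A few genes that this rule names are not reported here. Members and lists were chosen with earlier results of these data known. Alternatives were DESeq2 1.42.0, RLE scaling, no filter, Xist or HOX level as a covariate, only the libraries compared, each library left out, and sums in CPM or without Mbp and Cnp. Leaving out the 2 libraries with high Xist was added after the data had been seen.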

Additional observations from a re-analysis of the deposited data

How the results depend on the processing

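The count of myelin genes called was 0 under all but 3 of the alternatives run over the 8 comparisons. It was 1 in KO against control with only the 4 libraries compared, 0 to 1 in DKO against control with 1 library left out, and 1 there without the 2 libraries with high Xist (DKO 1 and control 1); the gene was Cldn11 each time. Of 528 alternatives for a single member, 3 passed an adjusted p of 0.05.

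For precursor genes, KO against control had 7 calls, 3 without the libraries with high Xist and 2 to 6 with 1 library left out. DKO against control had 1, with 3 by DESeq2, 5 without the filter, 0 with the HOX covariate, 0 without the libraries with high Xist and 0 to 2 with 1 left out. TKO against control had 1, with 2 by DESeq2, 2 without the filter, 3 with only 4 libraries, 0 without the libraries with high Xist and 0 to 0 with 1 left out. DKO against KO had 1, with 4 by DESeq2, 4 without the filter, 5 with the HOX covariate and 1 to 2 with 1 left out. QKO against TKO had 3, and 0 to 2 with 1 left out; QKO against KO had 9, and 6 to 7.

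Calls over all genes moved more widely. KO against control had 137, with 241 by DESeq2, 300 without the filter, 63 with Xist and 87 with HOX as a covariate, 691 with 4 libraries, 40 without the libraries with high Xist and 23 to 44 with 1 left out. DKO against control had 79, with 141 by DESeq2, 225 without the filter, 25 with HOX, 35 without the libraries with high Xist and 27 to 70 with 1 left out. TKO against control had 28, with 88 by DESeq2, 145 without the filter, 130 with HOX, 511 with 4 libraries and 13 to 18 with 1 left out. QKO against control had 44, with 91 by DESeq2, 122 without the filter, 22 with 4 libraries and 16 to 69 with 1 left out. DKO against KO had 106, with 227 by DESeq2, 336 without the filter, 64 with Xist, 314 with HOX, 63 with 4 libraries, 63 without the libraries with high Xist and 42 to 122 with 1 left out. TKO against DKO had 17, with 83 by DESeq2, 159 without the filter, 46 with Xist, 64 with 4 libraries, 61 without the libraries with high Xist and 7 to 44 with 1 left out. QKO against TKO had 54, with 100 by DESeq2, 160 without the filter and 25 to 80 with 1 left out. QKO against KO had 240, with 487 without the filter and 75 to 259 with 1 left out.

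The log2 ratio of the myelin to the precursor sum, minus control, was 0.04 in QKO, -0.0298 in CPM, a reversal of a value near 0, 0.14 without Mbp and Cnp and 0.01 to 0.08 with 1 library left out. In TKO it was -0.31, with -0.23 without Mbp and Cnp and -0.38 to -0.24 with 1 left out. In DKO it was -0.37, with -0.22 in CPM, -0.50 without Mbp and Cnp and -0.42 to -0.33 with 1 left out. In KO it was -0.71, with -0.53, -0.78 and -0.74 to -0.67. The cause of these shifts was not tested. Without Mbp and Cnp the myelin sum was mostly Mog and Cldn11, in KO 1 for example 8.14 and 10.3 of 20.1 nRPKM. The parts of Zfp57 reads in Mog and of meningeal tissue in Cldn11 were not tested, and no ratio without these genes was computed. No paired analysis was possible because the labels give no replicate numbers. Depth limits Mobp, and 2 libraries per genotype limit all tests.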
